A study of Mus musculus with 33 samples.

Results

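Afp, Ttr, Apoa1, Cubn, Dab2, Hnf4a, Gata4, Gata6, Foxa2 and Sox17 are genes by which visceral and definitive endoderm are commonly recognised. They were chosen by name, with earlier results of these data known. Their counts were followed as 10 of 37991 gene identifiers through all 33 RNA-seq libraries of the series. The parent of all lines was E14TG2a, mouse embryonic stem cells (mESCs) that had been cleared of Mycoplasma, and clones were made from it by lipofection and puromycin selection. Control clones (#1, #4 and #7) had received the empty CRISPR/Cas9 vector, whereas Neil1-mutant clones (#7, #9 and #11) and Neil2-mutant clones (#1, #11 and #14) had received a pair of guides that delete the exon coding for the active site of one of these DNA glycosylases, the enzymes that excise oxidised bases. Apex1, which codes for the endonuclease that acts after them in base excision repair, was deleted in the same manner, and its mutant is 1 clone (#46) sequenced in technical duplicate, so that an effect of Apex1 and a peculiarity of that clone cannot be told apart. Every line was profiled as undifferentiated mESCs, as embryoid bodies after 8 days (EBs), and as embryoid bodies given 5 µM retinoic acid from day 4 (EBs + RA), a treatment that drives EBs towards neural fates. On day 4 each EB culture was divided, and 1 portion was given RA, so that EBs and EBs + RA of a clone share their first days. In bulk RNA, fewer endoderm cells and less RNA per endoderm cell cannot be told apart.

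The visceral endoderm is the extraembryonic epithelium that surrounds the early mouse embryo and serves as its first organ of nutrition. It takes up maternal protein by receptor-mediated endocytosis and secretes carrier proteins that the fetal liver will make later, under a network of transcription factors that includes HNF4A, GATA4, GATA6 and FOXA2. Definitive endoderm, the source of the gut, arises at gastrulation and uses SOX17 and FOXA2 as well, so that several of these genes are shared by both tissues. In EBs an outer layer of primitive and visceral endoderm forms early, and RA is itself a well-known inducer of endoderm in stem and teratocarcinoma cells.

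The promoters of 4 of these genes are shown, 1 from the carriers, 1 from the endocytic machinery and 2 from the transcription factors, because genes of all these roles rose in EBs. Each runs from 250 bases before to 50 bases after an annotated start in RefSeq (GRCm38.p6), 5′ to 3′ on the strand of the gene. Capitals mark matches on either strand to letters typical of binding sites of endoderm factors, which were AGATAA for GATA factors, TGTTTAC for FOXA, GTTAAT for an HNF1 half-site and AAAGTCC for an HNF4 half-site. Of all 32851 RefSeq promoters of this length, these letters were present in 11.2%, 3.65%, 7.1% and 4.21%, respectively.
Afp, chr5:90490464-90490763, plus strand: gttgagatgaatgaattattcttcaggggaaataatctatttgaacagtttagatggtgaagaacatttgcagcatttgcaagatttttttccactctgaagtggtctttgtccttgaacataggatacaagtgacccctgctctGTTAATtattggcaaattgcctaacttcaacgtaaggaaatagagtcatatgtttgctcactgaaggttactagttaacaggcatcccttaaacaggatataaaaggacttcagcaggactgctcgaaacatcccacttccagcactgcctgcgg
Cubn, chr2:13491827-13492126, minus strand: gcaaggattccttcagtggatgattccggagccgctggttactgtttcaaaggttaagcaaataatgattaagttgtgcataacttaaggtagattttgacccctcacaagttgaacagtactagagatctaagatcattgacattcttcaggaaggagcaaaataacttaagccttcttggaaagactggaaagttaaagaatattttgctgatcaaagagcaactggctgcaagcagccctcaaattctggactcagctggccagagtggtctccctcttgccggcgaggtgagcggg
Hnf4a, chr2:163546905-163547204, plus strand: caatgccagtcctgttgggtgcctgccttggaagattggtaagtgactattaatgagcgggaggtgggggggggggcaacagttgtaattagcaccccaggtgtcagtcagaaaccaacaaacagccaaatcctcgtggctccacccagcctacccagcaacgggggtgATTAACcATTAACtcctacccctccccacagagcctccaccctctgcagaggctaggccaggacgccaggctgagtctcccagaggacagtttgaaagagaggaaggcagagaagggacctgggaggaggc
Foxa2, chr2:148045415-148045714, minus strand: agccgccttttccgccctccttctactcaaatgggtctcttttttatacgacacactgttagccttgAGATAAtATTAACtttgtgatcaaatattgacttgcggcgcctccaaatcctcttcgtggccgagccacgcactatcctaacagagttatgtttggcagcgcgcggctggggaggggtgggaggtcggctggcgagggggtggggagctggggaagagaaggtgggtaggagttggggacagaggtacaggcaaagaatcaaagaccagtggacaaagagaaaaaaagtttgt
In the Afp promoter 1 HNF1 half-site lay 105 bases before the start, and the Hnf4a window held 2 adjacent HNF1 half-sites. The Foxa2 window held a GATA match beside an HNF1 half-site, and the Cubn window held none of the 4 patterns. RefSeq lists 3 promoters for Foxa2, and the other two held no match. It lists 2 for Hnf4a, and the one not shown held 1 match. A match describes letters only, and RefSeq promoters were found here for 6 of the 10 genes. Ttr and Gata6 share a chromosome whose promoters were left out of the search, so that their absence is not a result. For Gata4 and Sox17 no promoter was found.

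The libraries held between 21523742 and 48350904 counts on genes, with a median of 26720028. The mESC library of Neil1 clone #11 stood apart, since 345 of 511 genes of chromosome X that the remaining mESC libraries each covered with 10 or more counts had 0 in it. None of the 10 genes lies on chromosome X, and without that library, as with it, 0 of them differed between Neil1 and control mESCs. Chromosome 9, which carries Apoa1, was lower in the same clone at all 3 stages, by a median of -0.255 (mESCs), -0.29 (EBs) and -0.308 (EBs + RA) on the log2 scale over 632 genes. Counts summed over Neil1, Neil2 or Apex1 include the bases outside the deletions and do not check the labels. They did not fall throughout, since Neil2 stood at 4.86 to 17.9 CPM in the Neil2 libraries against 3.40 to 15.2 CPM in the controls, and the libraries labelled Apex1 held 56.5 to 86.2 CPM of Apex1 against 7.76 to 17.8 CPM in the controls. CPM here are counts divided by the TMM-scaled library size and put on the usual counts-per-million scale.

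Afp (chromosome 5 of NCBIM37, 90919740 to 90937933) codes for alpha-fetoprotein, Ttr (chromosome 18, 20823751 to 20832825) for the thyroxine and retinol carrier transthyretin, and Apoa1 (chromosome 9, 46036663 to 46038549) for the main apolipoprotein of high-density lipoprotein. Cubn (chromosome 2, 13197965 to 13413551) codes for cubilin, the large endocytic receptor of the yolk sac and kidney, and Dab2 (chromosome 15, 6249788 to 6390712) for the adaptor that links such receptors to clathrin. Hnf4a (chromosome 2, 163332544 to 163398646) codes for the nuclear receptor that drives many visceral endoderm genes. Gata4 (chromosome 14, 63817759 to 63890529) and Gata6 (chromosome 18, 11052508 to 11085633) code for zinc-finger factors of endoderm and heart, Foxa2 (chromosome 2, 147868613 to 147872705) for a forkhead factor of endoderm, node and floor plate, and Sox17 (chromosome 1, 4481009 to 4486494) for an HMG-box factor of endoderm and endothelium. Genes on the opposite strand overlap Ttr, Cubn, Dab2, Hnf4a and Gata6. They held at most 10 counts in any library apart from 1010001N08Rik at the start of Gata6, which held 0 to 354, and the strand setting of the authors' counting is not given in the sources used here.

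In control cells all 10 genes were higher in EBs than in mESCs. Afp stood at 0.26 (#1), 0.19 (#4) and 0.12 (#7) CPM in control mESCs and at 82.2, 42.8 and 204 CPM in control EBs. Ttr stood at 0.037, 0.076 and 0.039 CPM in mESCs and at 58.4, 36.4 and 80.7 CPM in EBs. The mESC values of these carriers rest on 15 and 4 counts in the 3 libraries together, so that the ratio of EBs to mESCs was 551 for Afp (95% exact interval 334 to 985, counting error only) and 1156 for Ttr (451 to 4245). The remaining genes were measurable in mESCs. Hnf4a rose least, from 6.41, 6.09 and 5.46 CPM to 14.7, 9.93 and 20.0 CPM, a log2 fold change of 1.29 ± 0.25 (SE, FDR 0.00359). By comparison Gata4 rose from 4.03, 5.83 and 4.83 CPM to 77.8, 68.9 and 70.5 CPM, a log2 fold change of 3.87 ± 0.16 (FDR 1.6e-06). The remaining log2 fold changes were 3.53 (Gata6), 4.32 (Sox17), 4.5 (Dab2), 4.51 (Cubn), 5.01 (Apoa1) and 5.98 (Foxa2). Every EB value lay above every mESC value for each of the 10 genes, as it did for 27.4% of the 15799 genes tested. All 10 were called raised by edgeR's quasi-likelihood test at an FDR below 0.1 and a log2 fold change above 0.5, against 18.5% of those genes. Afp, Ttr and Foxa2 did not pass the filter on low counts when control mESCs were compared with Neil1 or Neil2 mESCs. They entered the present test through their EB counts, so that for these genes both counts were largely fixed beforehand.

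Per length of exon, the order of the genes changed between stages. In control mESCs Dab2 (1.39 CPM per kb), Gata4 (1.25) and Hnf4a (1.19) were the highest and Ttr (0.041) the lowest. Control EBs had Afp (52.6 CPM per kb) and Ttr (48.0) at the top, followed by Dab2 (31.9), Gata4 (18.5) and Apoa1 (18.1), with Hnf4a (2.97) last. In control EBs + RA, Apoa1 (30.9 CPM per kb) led, with Gata6 (20.6) and Gata4 (19.6) next and Hnf4a (1.47) again last. These are means of 3 clones whose spread was wide. For Afp in control EBs it was 110 ± 84.2 CPM (SD, n = 3), so that neighbours in the order such as Afp and Ttr, or Gata4 and Apoa1, are not separated by it.

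**Figure D1:**
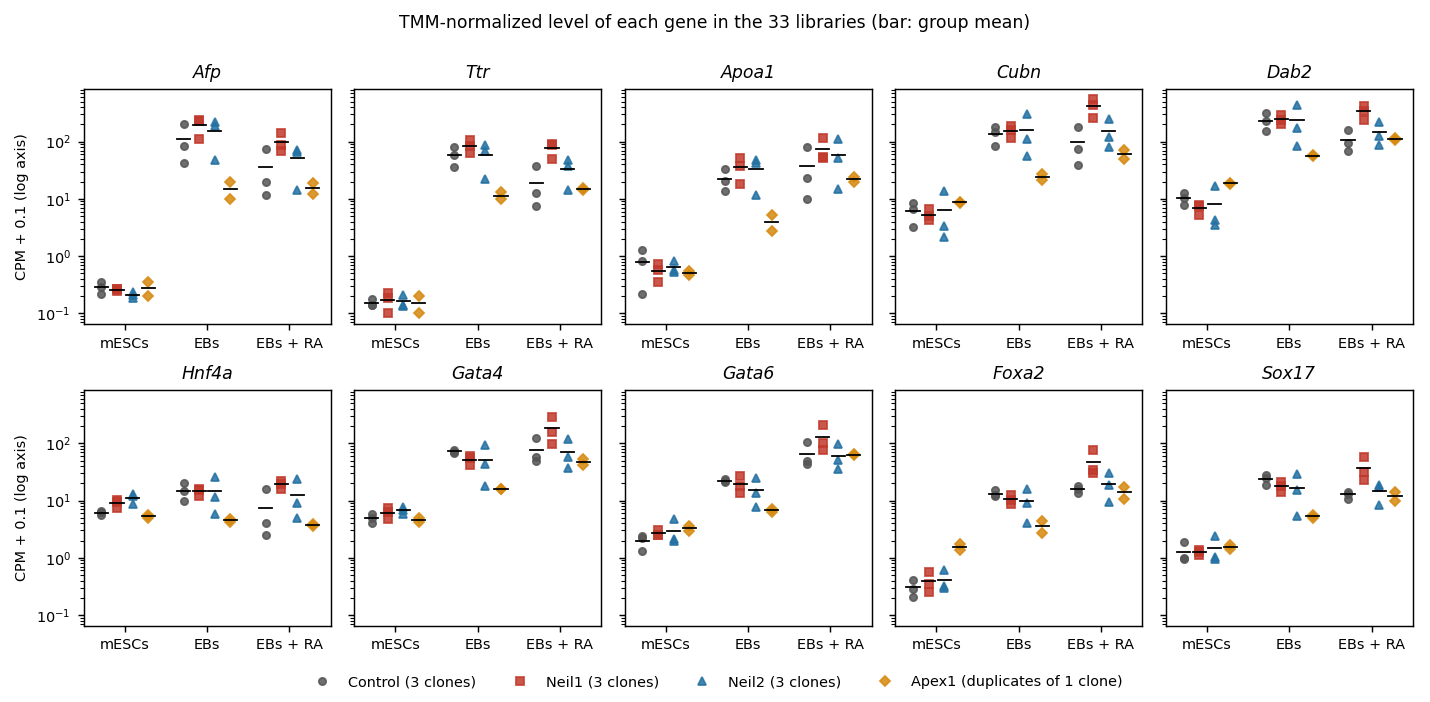
Level of each gene in every library, as TMM-normalized CPM plus 0.1 on a log axis, by stage and genotype, with a bar at the group mean. All 10 genes lie higher in control EBs than in control mESCs, and the Neil1 clones lie highest on average in EBs + RA for each gene.

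Control EBs + RA were then set against control EBs to learn what RA did to these genes without any mutation. Gata6 was the only one that rose, from 21.8 (#1), 23.4 (#4) and 21.1 (#7) CPM to 49.2, 43.6 and 105 CPM, a log2 fold change of 1.57 ± 0.32 (FDR 0.0044). Sox17 fell from 25.2, 28.2 and 18.9 CPM to 14.3, 10.7 and 13.1 CPM, with no overlap, by -0.94 ± 0.18 (FDR 0.00275). Dab2 fell from 227, 152 and 323 CPM to 94.0, 69.1 and 162 CPM, by -1.12 ± 0.37 (FDR 0.0371), and Ttr to 12.6, 7.43 and 36.9 CPM, by -1.63 ± 0.59 (FDR 0.057). Hence 4 of the 10 genes were called, against 44.1% of all 15919 genes tested. Gata6 and Sox17 kept their calls without any 1 of the clones. Without clone #1, 2 genes were called, against 3064 raised and 2680 lowered of all 16028 genes. Without clone #7, 6 were called, against 3788 raised and 3599 lowered of all 16041 genes.

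Since EBs and EBs + RA of a clone come from 1 culture, the same comparison was made within clones, and 7 of the 10 genes were then called, against 45.8% of all genes. Afp was lower with RA in 3 of 3 clones, at 19.5, 11.6 and 75.3 CPM, with a within-clone log2 fold change of -1.80 ± 0.14 (FDR 5.3e-05). Cubn (-0.72 ± 0.21, FDR 0.0255) and Hnf4a (-1.38 ± 0.36, FDR 0.0157) joined it. Hnf4a went from the EB values above to 3.90 and 2.37 CPM in clones #1 and #4, but to 15.9 CPM in clone #7. Gata4 (-0.05 ± 0.26), Foxa2 (0.23 ± 0.17) and Apoa1 (0.35 ± 0.32) did not pass the test either way. Their EBs + RA values were 56.8, 49.7 and 123 CPM for Gata4, 15.8, 13.2 and 17.7 CPM for Foxa2, and 22.8, 9.65 and 82.0 CPM for Apoa1. Clone #7 was the highest of the 3 controls for 9 of the 10 genes in EBs + RA and clone #4 the lowest for 10 of 10.

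In undifferentiated cells the mutants differed little from the controls in these genes. Afp and Ttr were too low to be tested in any mESC comparison. Neil1 mESCs had 0 of 7 tested genes called by edgeR, against 1.82% of all genes, with 2 at an unadjusted p under 0.05 and 0 called by DESeq2. Neil2 mESCs had 1 of 7 raised, against 1.4% of all genes. This was Hnf4a, at 8.77 (#1), 12.9 (#11) and 12.0 (#14) CPM against 6.41, 6.09 and 5.46 CPM in the controls, a log2 fold change of 0.88 ± 0.20 (FDR 0.0928). The groups did not overlap, but the call was lost without clone #11 or #14 or without control clone #1 or #4, and with all genotypes in 1 fit. In the libraries labelled Apex1, 1 of 8 tested genes was raised, against 1.17% of all genes. Foxa2 stood at 1.64 and 1.28 CPM in the duplicates against 0.11, 0.19 and 0.31 CPM in the controls (log2 fold change 2.81 ± 0.64, FDR 0.0872). Among the main mESC comparisons, Foxa2 passed the filter on low counts only where Apex1 was included. Whether it would have passed there without its Apex1 counts was not tested. Its control values rest on 3 (#1), 5 (#4) and 8 (#7) counts.

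In EBs without RA, 0 of the 10 genes were called in Neil1 mutants, against 23.5% of all genes, or in Neil2 mutants, against 16.3%. DESeq2 also called 0 in both, and 2 and 0 genes had an unadjusted p under 0.05. Gata4 came nearest, at 42.2 (#7), 54.6 (#9) and 59.0 (#11) CPM in Neil1 EBs against 77.8, 68.9 and 70.5 CPM in control EBs. All 3 mutant clones lay below the controls, with a log2 fold change of -0.48 ± 0.12 (FDR 0.0148) that stops short of the limit of 0.5. For Neil2 the same gene had a similar log2 fold change of -0.47 ± 0.46 (FDR 0.566), but at 93.1 (#1), 18.1 (#11) and 43.7 (#14) CPM its clones lay on both sides of the controls. Over all 10 genes the log2 fold changes ran from -0.48 to 0.83 in Neil1 and from -0.52 to 0.61 in Neil2, with medians of 0.02 and -0.01 beside 0.00 and 0.02 for all genes. In Neil1 EBs 3 genes (Ttr, Gata4 and Sox17) were called without control clone #7, against 22.7% of all genes. In Neil2 EBs 4 genes (Gata4, Gata6, Foxa2 and Sox17) were called lowered without Neil2 clone #1, against 12.9% of all genes called lowered and 23.5% called either way.

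With RA, the Neil1 mutants held more of these transcripts than the controls. All 10 genes had a positive log2 fold change, with a median of 1.54 beside 0.00 for all genes, and 6 were called raised against 21.2% of the 16019 genes tested. Among the carriers, Ttr stood at 49.3 (#7), 87.5 (#9) and 90.9 (#11) CPM in Neil1 EBs + RA and at 12.6, 7.43 and 36.9 CPM in the controls. No clone of one group reached the other, and the log2 fold change was 2.01 ± 0.55 (FDR 0.0256). Afp, at 69.7, 143 and 86.9 CPM against 19.5, 11.6 and 75.3 CPM, overlapped the highest control and missed the threshold (1.5 ± 0.64, FDR 0.101). Apoa1 had a log2 fold change of 0.97 ± 0.70 (FDR 0.299), with 54.5, 116 and 52.5 CPM against 22.8, 9.65 and 82.0 CPM. Without Neil1 clone #11, in which chromosome 9 was low, its log2 fold change was 1.16.

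The genes of the endocytic apparatus rose clearly. Cubn stood at 263 (#7), 446 (#9) and 551 (#11) CPM in Neil1 EBs + RA and at 73.8, 39.1 and 177 CPM in the controls, a log2 fold change of 2.12 ± 0.53 (FDR 0.0178). Dab2 stood at 241, 350 and 419 CPM against 94.0, 69.1 and 162 CPM, a log2 fold change of 1.64 ± 0.33 (FDR 0.00748). All Neil1 clones lay above all controls for both genes.

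Of the transcription factors, Foxa2, Sox17 and Gata4 were called. Foxa2 stood at 29.7, 34.3 and 77.9 CPM against 15.8, 13.2 and 17.7 CPM (log2 fold change 1.61 ± 0.36, FDR 0.0107), and Sox17 at 22.8, 31.7 and 58.5 CPM against 14.3, 10.7 and 13.1 CPM (1.58 ± 0.33, FDR 0.00797). Neither overlapped the controls, and clone #11 was well above the other two. Gata4 stood at 98.9, 157 and 290 CPM against 56.8, 49.7 and 123 CPM (1.25 ± 0.46, FDR 0.0641), where clone #7 fell below the highest control. Gata6, at 75.5, 102 and 207 CPM against 49.2, 43.6 and 105 CPM (0.96 ± 0.44, FDR 0.121), and Hnf4a, at 16.0, 21.8 and 19.6 CPM against 3.90, 2.37 and 15.9 CPM (1.37 ± 0.62, FDR 0.118), were not called. Hnf4a did not overlap the controls, although its lowest Neil1 clone lay just above control clone #7.

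The control clones set how many genes passed. Cubn, Dab2, Foxa2 and Sox17 were called whichever clone was left out. Without control clone #1 these were the only 4, against 13% of all genes called raised, and without control clone #7 all 10 were called, against 23.1%. In this comparison libraries of the same replicate number deviated together, although the labels name no batch that they share. With that number as a block 9 of the 10 genes were called, all but Apoa1, against 21% of all genes. Without a filter on low counts 3 were called, against 3312 raised of all 24572 genes.

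For the Neil2 mutants the same stage gave 0 of 10 genes called, against 34.9% of all 16055 genes tested, with 0 at an unadjusted p under 0.05 and 0 called by DESeq2. Log2 fold changes ran from -0.10 (Gata4) to 0.82 (Ttr), with a median of 0.49 beside 0.00 for all genes, and standard errors of 0.30 to 0.82. Ttr stood at 47.3 (#1), 14.3 (#11) and 37.6 (#14) CPM, and Cubn at 253, 81.2 and 122 CPM, with a log2 fold change of 0.68 ± 0.56 (FDR 0.385). For both genes clone #1 stayed just below the lowest Neil1 clone, and clone #11 lay within the range of the controls. Gata4 (118, 37.0 and 56.7 CPM) and Gata6 (96.1, 36.2 and 50.2 CPM, log2 fold change -0.09 ± 0.42) overlapped the controls, and their sign turned without control clone #7 or without Neil2 clone #11 or #14. Without control clone #7, 5 genes were called raised, which were Afp, Ttr, Apoa1, Cubn and Hnf4a, against 21.5% of all genes called raised and 40.1% called either way.

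When the mutants were compared with each other, edgeR called 0 of these genes and 0% of all genes in each of mESCs, EBs and EBs + RA. In EBs + RA all 10 had a higher estimate in Neil1 than in Neil2, by log2 fold changes of 0.37 to 1.49 with standard errors of 0.35 to 0.64, 7 had an unadjusted p under 0.05, and DESeq2 called 3, against 0.732% of the 15156 genes it tested. In mESCs and EBs 0 had an unadjusted p under 0.05 and DESeq2 called 0. Neil1 and Neil2 mutants were thus not shown to differ in these genes by the main test.

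**Figure D2:**
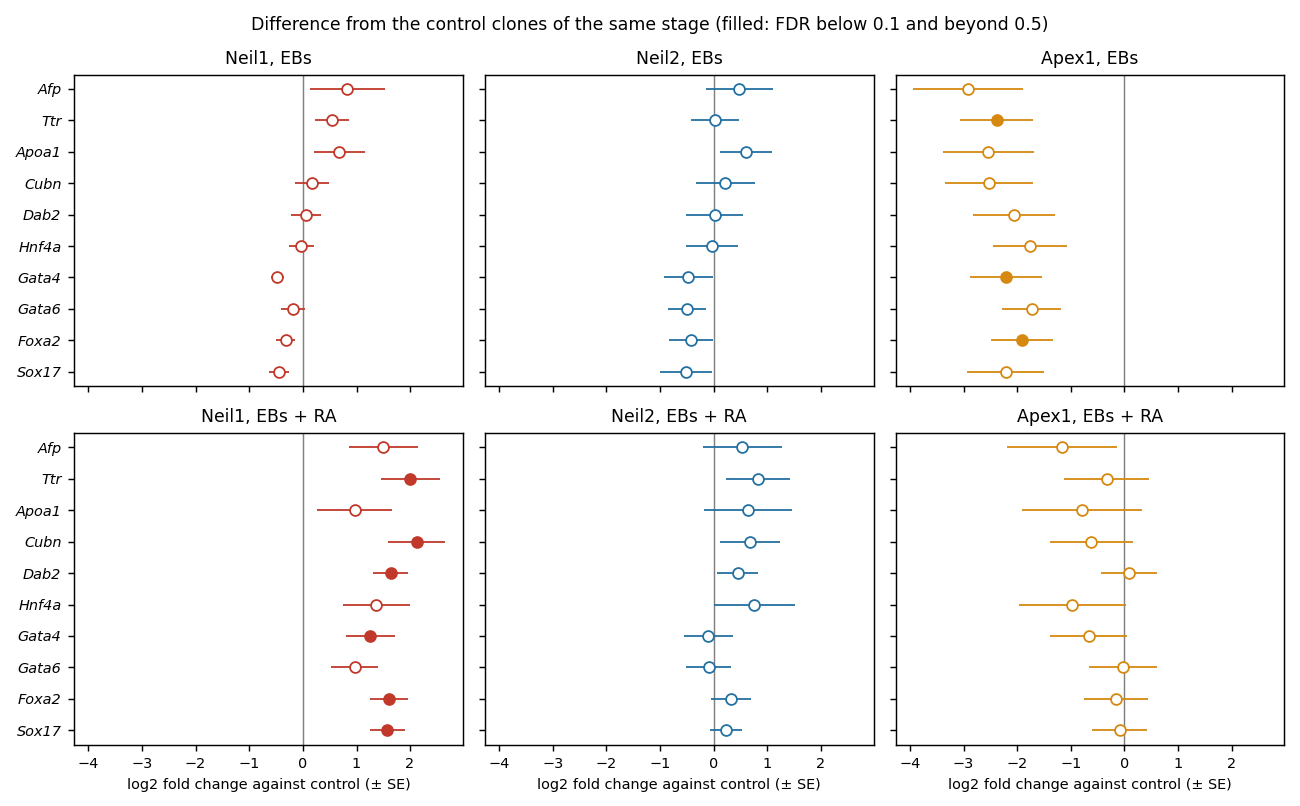
Log2 fold change of each gene against the control clones of the same stage, with its standard error, for each mutant in EBs and EBs + RA. Filled symbols passed the thresholds, which 6 genes did in Neil1 EBs + RA and 3 in Apex1 EBs, and the Apex1 panels rest on 1 clone.

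Whether RA changed the effect of a mutation was tested by an interaction term. For Neil1 all 10 interaction terms were positive and 5 were called raised, against 16.5% of the 16706 genes tested. These were Sox17 (2.04 ± 0.42, FDR 0.00496), Cubn (1.97 ± 0.67, FDR 0.0539), Foxa2 (1.95 ± 0.43, FDR 0.00783), Gata4 (1.75 ± 0.54, FDR 0.0384) and Dab2 (1.59 ± 0.47, FDR 0.0318). Foxa2 and Sox17 kept the call without any 1 clone, and they were the only ones to do so without control clone #1 or without Neil1 clone #11. Of all genes, 1430 of 16970 and 2443 of 16948 were raised in these 2 fits, respectively. For Neil2 0 interaction terms were called, against 7.31% of all genes, with 0 at an unadjusted p under 0.05 and 0 by DESeq2.

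Because both EB cultures of a clone have a common origin, the clone is a natural block, and the spread between clones then leaves the comparison. The blocked test called 9 of 10 genes for Neil1, all but Apoa1, against 19.8% of all genes. For Neil2 it called 6, which were Ttr, Cubn, Dab2, Hnf4a, Foxa2 and Sox17, against 11.9%. Their terms were smaller in Neil2, with Cubn at 0.82 ± 0.28 (FDR 0.0702) against 2.13 ± 0.28 (FDR 0.00112) in Neil1 and Dab2 at 0.66 ± 0.23 (FDR 0.0776) against 1.60 ± 0.18 (FDR 0.000508). Both mutants were set against the same controls, and the difference between their terms was not tested.

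Within clones, the RA response itself can be read from log2 CPM in EBs + RA minus EBs. Cubn was lower with RA in 3 of 3 control clones, with a mean difference of -0.71 ± 0.58 (SD, n = 3), and higher in 3 of 3 Neil1 clones, at 1.40 ± 0.33. Sox17 went the same way, at -0.91 ± 0.44 in the controls and 1.00 ± 0.42 in Neil1, as did Dab2, at -1.13 ± 0.14 and 0.44 ± 0.32, and Hnf4a, at -1.42 ± 0.95 and 0.39 ± 0.05. For these 4 genes the difference was below 0 in all control clones and above 0 in all Neil1 clones, as it was for 4.75% of the 16706 genes tested. Gata6 was higher with RA in all clones, by 1.46 ± 0.75 in the controls, 2.65 ± 0.25 in Neil1 and 2.01 ± 0.18 in Neil2. Afp was lower with RA in all of them, by -1.80 ± 0.32, -0.94 ± 0.73 and -1.61 ± 0.11. Counted over 10 genes and 3 clones, the difference was positive in 8 of 30 cases in the controls, 17 of 30 in Neil2 and 25 of 30 in Neil1, where genes of 1 clone are not independent.

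**Figure D3:**
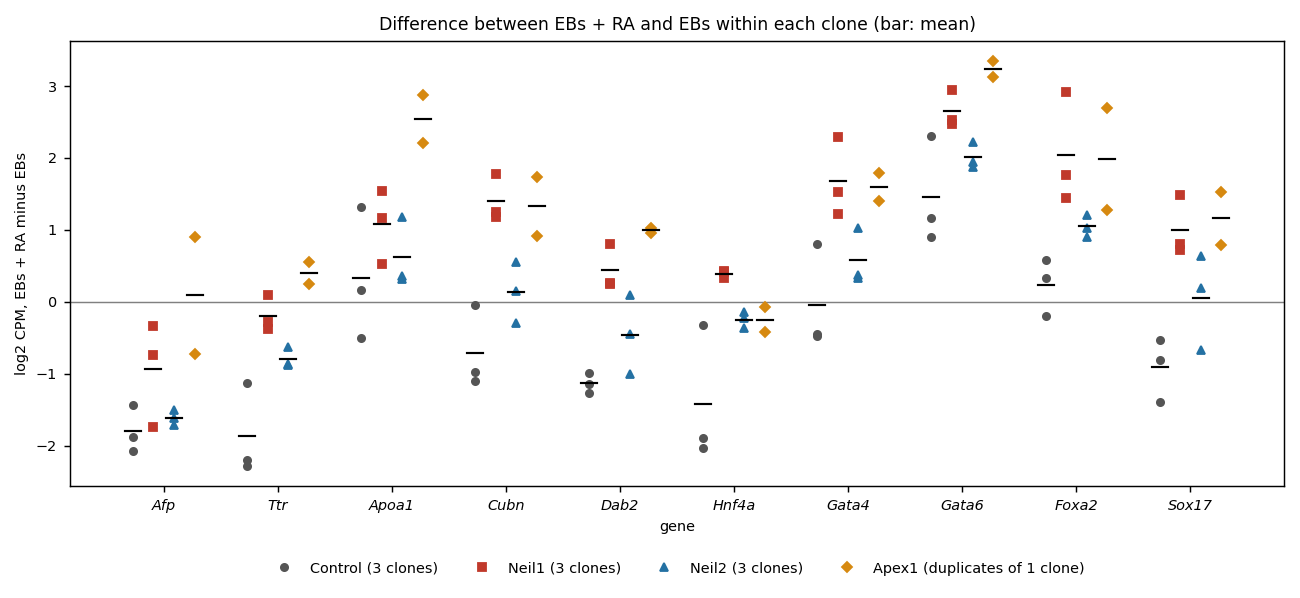
Difference in log2 CPM between EBs + RA and EBs of the same clone, 1 point per clone (for Apex1, per technical duplicate) and a bar at the mean. Cubn, Dab2, Hnf4a and Sox17 lie below 0 in all control clones and above 0 in all Neil1 clones.

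The order of the clones of 1 genotype was shared by the 10 genes in some groups and not in others. In Neil2 EBs clone #1 had the highest and clone #11 the lowest value of the 3 clones for 10 of 10 genes, and the same held in Neil2 EBs + RA. Summed over the genes, clones #1, #11 and #14 held 1300, 260 and 675 CPM in EBs and 988, 308 and 556 CPM with RA. Control clones #1, #4 and #7 held 686, 475 and 964 CPM in EBs and 363, 256 and 808 CPM with RA. In control EBs clone #7 was highest for 6 genes but lowest for 3, and clone #4 lowest for 7 but highest for 3. Gata6, Foxa2 and Sox17 were the genes highest in clone #4 and lowest in clone #7. In Neil1 clones #7, #9 and #11 the sums were 746, 996 and 745 CPM in EBs and 921, 1489 and 1853 CPM with RA. Clone #7 had the lowest value for 8 of 10 genes in Neil1 EBs and for 9 of 10 with RA. In mESCs, where the sums were 24.4 to 54.9 CPM, no clone was lowest or highest for more than 6 genes.

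In the Apex1 EBs every gene was below the control mean. The duplicates were summed to 1 library, and the spread was taken from the 9 clones of the other genotypes on the assumption that the Apex1 clone varies as they do. On that basis 3 genes were called lowered, against 4.77% of the 16864 genes tested. Ttr stood at 12.9 and 9.76 CPM against 58.4, 36.4 and 80.7 CPM (log2 fold change -2.38 ± 0.69, FDR 0.0763), Gata4 at 15.6 and 15.9 CPM against 77.8, 68.9 and 70.5 CPM (-2.20 ± 0.67, FDR 0.0893), and Foxa2 at 2.60 and 4.34 CPM against 12.5, 15.2 and 11.8 CPM (-1.92 ± 0.58, FDR 0.084). In each of these genes both duplicates lay below all control clones.

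The other 7 genes had log2 fold changes of similar size, from -1.73 (Gata6) to -2.91 (Afp), and FDRs of 0.1004 to 0.173. With the duplicates entered as separate libraries 9 genes were called, against 13.9% of all genes, but that fit takes repeat sequencing of 1 clone for its spread. Without any 1 control clone 0 or 1 gene was called, and with no filter on low counts 0. Both Apex1 duplicates lay below every control and every Neil1 clone for each gene, and for all genes but Foxa2 and Sox17 also below the lowest Neil2 clone. The duplicates give the position of 1 clone only. How many of all genes have the same order was not counted, so that it is a description.

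In Apex1 EBs + RA, 0 of 10 genes were called, against 7.21% of all genes, with 0 at an unadjusted p under 0.05 and 0 called by DESeq2. Log2 fold changes ran from -1.16 (Afp) to 0.09 (Dab2). Gata6 stood at 65.1 and 62.0 CPM, within the range of the controls, after 6.33 and 7.01 CPM in Apex1 EBs. Cubn stood at 50.3 and 70.8 CPM after 26.6 and 21.3 CPM. Both genes were higher with RA in both duplicates, as were Dab2, Apoa1, Gata4, Foxa2, Sox17 and Ttr, a comparison within 1 clone that has no test.

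Other genes of the visceral endoderm were examined beside these 10. This list and those that follow were also written with earlier results of these data known, so that their counts are a description. Of 18 such genes, 10 were raised and 0 lowered in Neil1 EBs + RA, against 21.2% of all genes called raised. The median log2 fold change of the 18 was 1.30. The largest rises were those of Amn, which codes for the partner that carries cubilin to the cell surface (2.69 ± 0.58, FDR 0.00947), and Lrp2, which codes for the endocytic receptor megalin (1.92 ± 0.33, FDR 0.00414). In Neil2 EBs + RA 6 of the 18 were raised, against 18.3% of all genes, and 0 lowered, with a median of 0.66. Amn (1.95 ± 0.54, FDR 0.0257) again led, followed by Apoe, an apolipoprotein (1.47 ± 0.45, FDR 0.0374).

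Without RA the same list showed 1 of 18 raised in Neil1 EBs, Apoa2 (1.02 ± 0.36, FDR 0.0625), and 0 in Neil2 EBs by edgeR. Of all genes, 1611 of 15479 and 1347 of 15575 were raised there. In Apex1 EBs 4 of 18 were lowered, against 4.77% of all genes, with a median of -1.89. Among the 4 was the fibrinogen gene Fgb (-2.72 ± 0.76, FDR 0.066). In Apex1 EBs + RA 0 were called, against 7.21% of all genes. RA in control EBs raised 5 and lowered 7 of the 18, against 3717 and 3302 of all 15919 genes. The fibrinogen genes Fga (3.78 ± 1.04, FDR 0.0185) and Fgg (3.10 ± 0.87, FDR 0.0196) rose most, whereas Amn (-3.74 ± 0.40, FDR 0.000147) and Apoc2 (-3.06 ± 0.85, FDR 0.0219) fell most.

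Of 12 genes of the primitive and parietal endoderm, the layer that secretes a thick basement membrane, 8 were raised in Neil1 EBs + RA. The share of all genes raised there was 21.2%, and the median of the 12 was 1.76. The called genes were led by Thbd, which codes for thrombomodulin (2.41 ± 0.91, FDR 0.0699), and Lama1, a laminin chain of Reichert's membrane (2.25 ± 0.69, FDR 0.0368). Summed over the list, Neil1 EBs + RA held 6068 to 26940 CPM against 2294 to 6668 CPM in the controls, with medians of 8399 and 3504.5 CPM, and the lowest Neil1 clone lay below the highest control. Without RA, 4 of the 12 were raised in Neil1 EBs, against 1611 of all 15479 genes, with a median log2 fold change of 0.41. Among the 4 were Thbd (1.55 ± 0.26, FDR 0.00155) and Lama1 (1.14 ± 0.24, FDR 0.0139). In Neil2 EBs + RA 0 were raised, 1 was lowered (Plat, -1.04 ± 0.29, FDR 0.0265) and the median was 0.00. Of all 16055 genes, 2936 were raised and 2665 lowered there. Apex1 EBs had 4 of 12 lowered, against 4.77% of all genes, with a median of -1.65.

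Of the 12 definitive endoderm and gut genes, 8 passed the filter on low counts in control EBs against control mESCs. All 8 were raised, against 18.5% of all genes, with a median log2 fold change of 2.23. A gene near 0 in mESCs could pass that filter only through its EB counts, so that its rise was fixed beforehand. How many of the 8 passed in this way was not counted. In EBs the median log2 fold changes were -1.12 (Neil1), -0.82 (Neil2) and -1.47 (Apex1). Of 10 tested, 7 were lowered in Neil1, against 2023 of all 15479 genes. In Neil2 4 of 10 were lowered, against 1198 of all 15575, and in Apex1 3 of 10, against 805 of all 16864. Examples in Neil1 and Neil2 EBs were Cdx2, the caudal factor of hindgut and trophectoderm, at -5.50 ± 0.24 (FDR 1.3e-06) and -5.40 ± 0.28 (FDR 3.7e-05), and Cxcr4, a chemokine receptor of definitive endoderm and mesoderm, at -2.90 ± 0.19 and -3.01 ± 0.24. Sox17 and Foxa2, the members of the 10 used in definitive endoderm, were not called in either. Summed over the 12 genes of the list, Apex1 EBs held 673 to 796 CPM, more than the 312 to 579 CPM of control EBs. Neil1 EBs (375 to 473 CPM) lay within the control range, and Neil2 EBs held 99.3 to 364 CPM. In EBs + RA, 5 of 11 tested were raised and 2 lowered in Neil1, against 3390 and 3190 of all 16019 genes. In Neil2 2 of 11 were raised and 2 lowered, against 2936 and 2665 of all 16055, so that the Neil2 counts lay near the share of all genes. Among anterior visceral endoderm genes, which pattern the head, Lefty1 was raised in Neil1 EBs + RA (1.68 ± 0.43, FDR 0.0187) and Neil2 EBs + RA (3.25 ± 0.82, FDR 0.0186), while Lhx1 was lowered in both (-3.73 ± 0.36 and -3.14 ± 0.28).

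**Figure D4:**
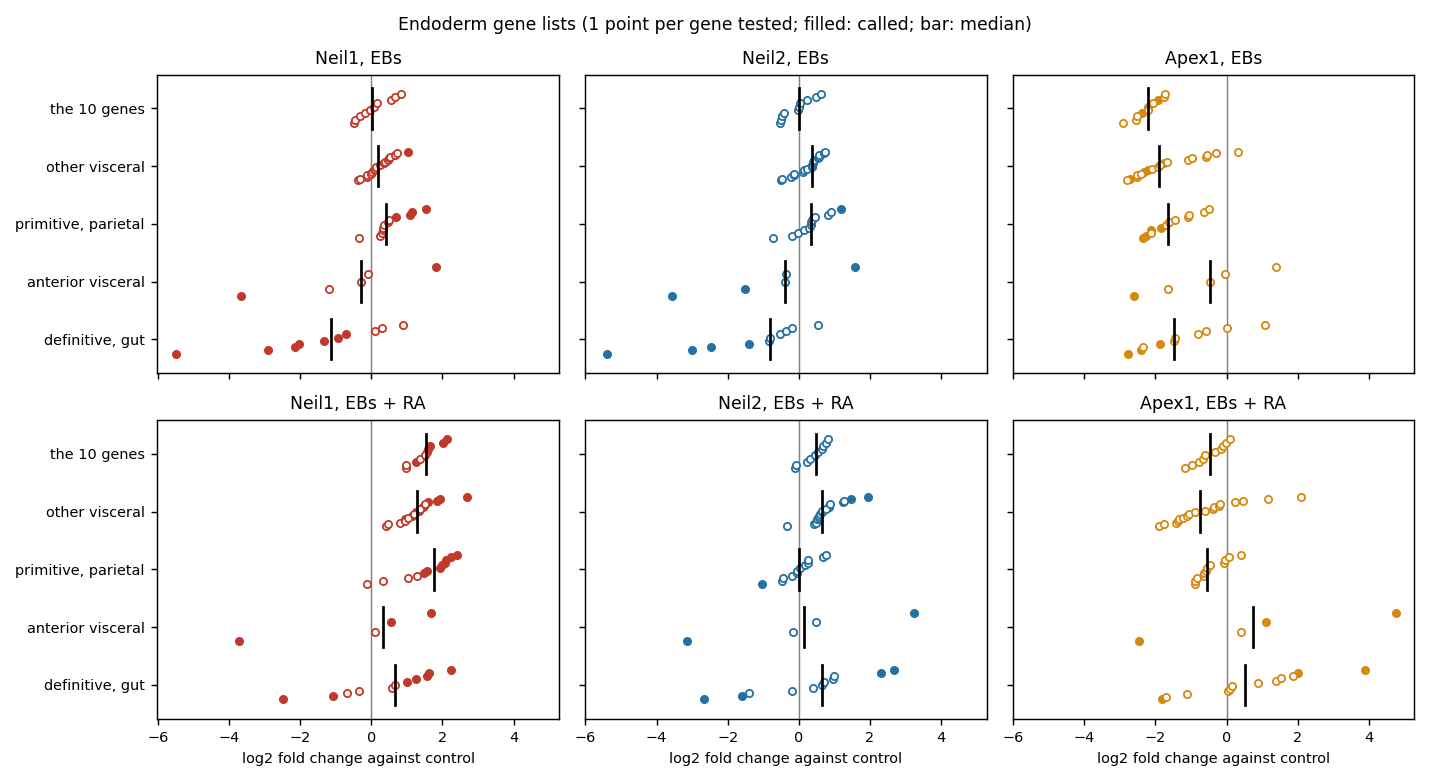
Log2 fold change against control for every tested gene of 5 endoderm lists, 1 point per gene, filled where called, with a bar at the median. In Neil1 EBs + RA the 10 genes, the other visceral genes and the primitive and parietal genes lie almost wholly above 0, and in Neil1 EBs 7 of 10 definitive and gut genes were lowered.

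Several of the 10 genes are also made by other cell types, whose markers moved as well. Of all 16019 genes tested in Neil1 EBs + RA, 3390 were raised and 3190 lowered, the background for the marker counts of that stage. Of 8 cardiac markers, relevant to Gata4 and Gata6, 4 were raised and 2 lowered in Neil1 EBs + RA, and their sum was 20.6 to 104 CPM against 19.0 to 23.5 CPM in controls. The medians were 24.7 and 21.9 CPM, and 1 Neil1 clone held the 104 CPM. Without RA the cardiac sum was 15.4 to 19.4 CPM in Neil1 EBs and 16.5 to 21.5 CPM in Neil2 EBs. In control EBs it was 109 to 138 CPM. Of 5 choroid plexus markers, relevant to Ttr, 3 of 4 tested were raised in Neil1 EBs + RA. Their sums were 215 to 308 CPM against 43.6 to 129 CPM in the controls. Folr1 (1.98 ± 0.31, FDR 0.00273) and Clic6 (1.52 ± 0.50, FDR 0.0449) led, and Clic6 was also the gene with the profile nearest to that of Dab2.

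Endothelial markers, relevant to Sox17, went both ways, with 2 raised and 3 lowered of 6. Pecam1, the platelet and endothelial adhesion molecule, was raised (1.66 ± 0.29, FDR 0.00369) and Cldn5, a claudin of endothelial tight junctions, lowered (-3.97 ± 0.64, FDR 0.00278). Floor plate and notochord markers, relevant to Foxa2, had 1 raised and 2 lowered of 3 tested and Ferd3l at 0 throughout, with Shh at -2.12 ± 0.58 (FDR 0.0236). Without RA their sum was 10.5 to 12.1 CPM in Neil1 EBs and 9.14 to 10.5 CPM in Neil2 EBs. In control EBs it was 76.0 to 123 CPM. Macrophage markers, relevant to Dab2, had both tested genes of 6 raised in Neil1 EBs + RA. Their sums were 42.1 to 94.5 CPM against 14.0 to 21.7 CPM, with C1qb, 1 of the 6, at 0 in every control. All 5 neuronal markers were lowered, with sums of 28.6 to 36.6 CPM against 148 to 242 CPM, and all 6 pluripotency markers raised, at 253 to 323 CPM against 72.8 to 108 CPM. In Apex1 EBs 2 of 7 cardiac markers were lowered and 3 of 6 pluripotency markers raised, against 805 lowered and 694 raised of all 16864 genes. The part of these other cell types in the values of the 10 genes was not tested.

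Gata4 lies 5381 bases from Neil2 on chromosome 14 (63801280 to 63812378), next to the site that was cut in the Neil2 lines. Gata4 was not called in Neil2 mESCs (0.43 ± 0.23, FDR 0.408), EBs or EBs + RA. Of the genes tested within 500 kb of Neil2, 0 of 11, 1 of 11 and 0 of 9 were called in Neil2 mESCs, EBs and EBs + RA. Of all genes, 16.3% were called in Neil2 EBs and 34.9% in Neil2 EBs + RA. In Neil2 mESCs 219 were raised and 67 lowered of 15615. The neighbours on the other side, Fdft1 of sterol synthesis and the protease gene Ctsb, had log2 fold changes of 0.14 ± 0.14 and 0.30 ± 0.13 in Neil2 mESCs, and neither was called. For Gata4 the interaction term of Neil1, whose locus is on another chromosome, was called and that of Neil2 was not, and the difference between these terms was not tested.

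Profiles over the 12 groups were compared by the root mean square difference of centred log2 CPM, among 15712 genes. Afp and Ttr were each other's nearest gene, at 0.37, and the next gene, Prss12, stood at 1.15 from Afp and 1.17 from Ttr. Gata4 was nearest to Sox17 among the 10 genes (0.33), with Slc39a5 (0.33) and Ihh (0.35) among the near genes outside them. Cubn and Dab2 lay at 0.42 from each other, near Habp2 (0.34) and Hkdc1 (0.35) for Cubn and Clic6 (0.31), Ctsh (0.43) and Car4 (0.44) for Dab2. Apoa1 was nearest to its genomic neighbour Apoa4 (0.30), with Aqp8 (0.44) and Spp2 (0.45) next.

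Gata6 was nearest to the collagen chaperone gene Serpinh1 (0.29), Egflam (0.39) and 8430408G22Rik (0.40), and the closest of the other 9, Gata4, was at 0.65. Hnf4a was nearest to Npl (0.35), Atp1b1 (0.35) and Nos2 (0.36), and the closest of the other 9 was Gata4 at 1.58. Foxa2 was nearest to Tmprss2 (0.46), BC025446 (0.54) and Habp2 (0.55), and Sox17, after Gata4, was near Pla2g12b (0.39) and Nostrin (0.44). These distances rest on 12 group means that share a parent line and are a description only.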

How the data were processed

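TruSeq RNA v2 libraries, 33 in all, were prepared from polyadenylated RNA and sequenced on an Illumina instrument. The authors aligned the reads to NCBIM37 with TopHat2 2.0.9 and Bowtie2 2.1.0 and deposited raw HTSeq 0.5.4 counts per gene, which they had tested with DESeq2 1.6.3. Rows that name no gene were left out. As a percentage of the counts on genes and those rows they held 5.86% to 8.85% (no feature), 1.89% to 2.88% (ambiguous) and 11.4% to 19.9% (not unique). Totals on genes were 21523742 to 48350904, which sets the precision of low values.

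The counts were tested with edgeR 4.0.16 (limma 3.58.1, R 4.3.3), using filterByExpr, TMM and the robust quasi-likelihood test, on the samples of each comparison alone, with Benjamini-Hochberg adjustment (FDR) over all genes tested. Calls needed an FDR below 0.1 together with a log2 fold change beyond 0.5 in either direction. The standard error given with a log2 fold change is its absolute value divided by the square root of the quasi-likelihood F statistic. Interaction fits used EBs and EBs + RA of control and 1 mutant. For Apex1 the technical duplicates were summed and all 4 genotypes of a stage entered the fit. The tests were run on simulated counts with known changes, drawn for independent genes with a fixed spread and no shared clone effect. This does not check their error rates under the spread between clones seen here. Log2 CPM within clones used a prior count of 2. Permutation of 3 against 3 clones cannot go below p = 0.1 (exact, two-sided) and was not used. Tables and figures were made with Python 3.11.15, pandas 2.3.3, numpy 2.4.6 and matplotlib 3.10.9.

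Replicates were independent clones. EBs and EBs + RA of a clone came from 1 culture per the treatment protocol in the labels, and their deviations from the group means correlated at 0.345 to 0.414 (control), 0.167 to 0.339 (Neil1) and 0.428 to 0.483 (Neil2). Between genotypes, libraries of the same replicate number deviated together throughout only for Neil1 and control in EBs + RA (0.22 to 0.295). Over all 27 same-number pairs of 2 genotypes the mean correlation was -0.0159, and the labels name no shared batch. Alternatives were DESeq2 1.42.0, RLE size factors, no filter, an FDR below 0.05, the replicate block, all genotypes in 1 fit, the Apex1 duplicates as separate libraries, and leaving out each clone. No 2 libraries agreed within sampling noise.

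All 10 genes are named in each comparison, with the targeted genes, from each other list up to 2 called genes with the largest rise and up to 2 with the largest fall, the 3 genes nearest in profile, and genes within 500 kb of Neil2. Some genes that this rule names are not reported here. The members and lists were chosen with earlier results of these data known.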

Additional observations from a re-analysis of the deposited data

Results flagged for a closer look

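The change in Neil1 clones against control clones differed between EBs and EBs + RA for 5 genes, by a test of the interaction itself with edgeR. On the log2 scale the difference was 1.97 for Cubn, 1.59 for Dab2, 1.75 for Gata4, 1.95 for Foxa2 and 2.04 for Sox17, with FDRs of 0.0539, 0.0318, 0.0384, 0.00783 and 0.00496. With 3 clones per group no gene was examined for a single clone far from the others.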

How the results depend on the processing

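Numbers of the 10 genes called moved as follows. With the replicate block they were 7 for RA in controls (4 without the block), 9 for the Neil1 interaction (5), 6 for the Neil2 interaction (0) and 1 for Neil2 EBs + RA (0), where same-numbered libraries did not deviate together, so that they share only a number. The block turned Gata4 under RA in controls to -0.053. Without a filter they were 3 for Neil1 EBs + RA (6), 2 for RA in controls, 2 for the Neil1 interaction and 0 for Apex1 EBs (3). DESeq2 gave 8 for Apex1 EBs, 0 for Apex1 mESCs (1) and 3 for Neil1 against Neil2 in EBs + RA (0). The duplicates as separate libraries gave 9 for Apex1 EBs and 2 for Apex1 mESCs. An FDR below 0.05 gave 0 for Neil2 mESCs (1), Apex1 mESCs and Apex1 EBs, and 1 fit of all genotypes gave 0 for Neil2 mESCs. RLE size factors moved the mean of Gata4 in Apex1 EBs from 15.8 to 15.5 CPM. The numbers over all genes moved as well. Without a filter, 3312 of 24572 were raised in Neil1 EBs + RA and 2263 of 26073 in the Neil1 interaction. RA in controls then had 3992 raised and 3744 lowered of 24561. With the block, Neil2 EBs + RA had 2760 raised and 2584 lowered of 16055. For Apex1, which is 1 clone, shares of all genes under DESeq2 or without a filter are not given. The cause of these shifts was not tested.

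Leaving out 1 clone gave 10 to 10 genes called for control EBs against mESCs, 2 to 6 for RA in controls, 4 to 10 for Neil1 EBs + RA, 0 to 5 for Neil2 EBs + RA, 0 to 3 for Neil1 EBs, 0 to 4 for Neil2 EBs, 0 to 1 for Apex1 EBs and Apex1 mESCs, 0 to 2 for Neil2 mESCs, 2 to 8 for the Neil1 interaction, and 0 to 0 for the Neil2 interaction, Apex1 EBs + RA, Neil1 mESCs and Neil1 against Neil2. Signs turned in Neil2 EBs + RA without Neil2 clone #1 for Apoa1 (range -0.19 to 1.87), Hnf4a (-0.10 to 1.99) and Foxa2 (-0.15 to 0.66), and without control clone #7 or Neil2 clone #11 or #14 for Gata4 (-0.70 to 0.42) and Gata6 (-0.60 to 0.41). They turned under RA in controls without clone #7 for Apoa1 (-0.10 to 0.98) and Gata4 (-0.49 to 0.32). In the Neil2 interaction they turned for Afp without control clone #1 or Neil2 clone #14 (-0.089 to 0.43), and for Apoa1 without control clone #1 or #4 or Neil2 clone #1 (-0.41 to 0.87). The numbers over all genes moved too. In the Neil1 interaction 1430 of 16970 were raised without control clone #1 and 3123 of 16995 without control clone #7. In Neil2 mESCs 189 were raised and 52 lowered of 16007 without Neil2 clone #1.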
